A study of Homo sapiens with 42 samples.

Results

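The comparison described here set 3 arrays of RPMI-8226 cells whose BMI1 hairpin had been switched on with doxycycline for 32 h against 3 arrays of the same line kept without doxycycline for 32 h, 6 of the 42 arrays in the study. Arrays were chosen by their titles, which name the hairpin, the drug and the time. RPMI-8226 is an established human multiple myeloma cell line, and multiple myeloma is a cancer of plasma cells, the antibody-secreting end stage of the B cell lineage. The groups were cells stably infected with the BMI1 shRNA and given 100 ng/ml doxycycline, the same infected cells without doxycycline, cells stably infected with the control shRNA and given doxycycline, and control-shRNA cells without doxycycline, with 3 arrays in each group at 32 h. The control-shRNA arrays serve here as a check on doxycycline itself. All groups derive from 1 cell line and the labels describe a single BMI1 hairpin. Whether each infected line was a clone or a pool, and which promoter drove the hairpin, is not given in the sources used here.

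BMI1, also called PCGF4, is a subunit of Polycomb repressive complex PRC1, which silences genes by modifying histone H2A through its RING1 and RNF2 ubiquitin ligase subunits and by compacting chromatin. PRC1 acts together with PRC2, whose EZH2 subunit methylates histone H3 at silenced genes. In many cell types BMI1 is best known for repressing the CDKN2A locus, which encodes inhibitors of cell proliferation. A short hairpin RNA is processed into a small interfering RNA that directs the destruction of a matching transcript, and it can also act on other transcripts with partial matches. The study concerned BMI1 in the growth of myeloma cells, and the comparison addresses which transcripts differed after 32 h of BMI1 knockdown.

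The BMI1 probe set read 183, 148 and 169 signal units on the doxycycline arrays, against 1038, 980 and 913 on the arrays without it. Signals are MAS5 values, a linear brightness per probe set that had been scaled to the same trimmed mean on every array. No array of 1 group came near the other group. The log2 fold change was -2.52 ± 0.10 (SE; limma, Benjamini-Hochberg adjusted p = 8.94e-21), which is 5.72-fold lower. In the control-shRNA line BMI1 averaged 1192 ± 12.9 with doxycycline and 1251 ± 31.2 without (SD, n = 3 each), a log2 fold change of -0.07 ± 0.10 (adjusted p = 0.979). The BMI1 probe set is annotated both to BMI1 and to the COMMD3-BMI1 readthrough transcript, which it cannot tell apart.

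Median probe set signals of the 12 arrays at 32 h ran from 16 to 21.4. Correlations across the 35235 retained probe sets were 0.974 to 0.977 among the 3 doxycycline arrays of the BMI1-shRNA line. They were about 0.977 among its 3 arrays without, and 0.973 to 0.978 between its doxycycline arrays and those without. The ratio of the GAPDH 3′ to 5′ probe sets, a sign of RNA integrity, averaged 0.903 ± 0.0353 with doxycycline and 0.943 ± 0.0154 without in the BMI1-shRNA line (SD, n = 3 each). In the control-shRNA line it averaged 1.07 ± 0.0252 with doxycycline and 0.998 ± 0.0612 without. Its part in the results was not tested. Of 10 plasma cell markers 9 were retained, with SLAMF7 the exception. Summed plasma cell marker signal was 21311 to 23075 with doxycycline and 21554 to 24712 without. T cell, monocyte, erythroid, fibroblast and epithelial marker lists held no called gene. Of 12 T cell markers 8 were retained (CD2, CD3E, CD4, CD5, CD7, CD8A, CD8B and CD28) and CD3D, CD3G, LCK and TRAT1 were not, with a summed signal of 3705.5 to 4074.4 with doxycycline and 3597.2 to 3903.4 without. Most of that sum was CD8B, at 3083, 2914 and 2680 with doxycycline, against 2802, 2579 and 2859 without, and CD28, at 757, 879 and 842 with doxycycline, against 811, 806 and 870 without. Replicates carry numbers, but nothing says that they came from separate cultures, and p-values therefore cover only the spread of these arrays, which may be technical. In RNA from a whole culture, fewer cells of a kind and less RNA per cell cannot be told apart.

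Across the 14706 genes tested, 247 fell and 77 rose with doxycycline in the BMI1-shRNA line at a limma adjusted p under 0.05, together 324 genes or 2.20% of those tested. Falls made up 1.68% of the genes tested and rises 0.524%. Most changes were small, with a median log2 fold change of -0.45 among the falls and 0.35 among the rises, and 17 falls and 6 rises were at least 2-fold. The median over all genes tested was 0.02. Called genes were brighter than most: the median signal was 496.4 among falls and 357 among rises, against 131 over all genes. Of the 324 called genes, 320 had 3 doxycycline arrays wholly above or wholly below the 3 arrays without. The calls were made on these same arrays, so this separation is no separate support for them. Over all genes tested it holds for 14.9% (8.68% with doxycycline above, 6.19% below). In the control-shRNA line it holds for 9.33% (4.43% above, 4.90% below). Values were compared as log2(signal + 5.4), so a fold change understates the change of a gene with low signal.

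**Figure D1:**
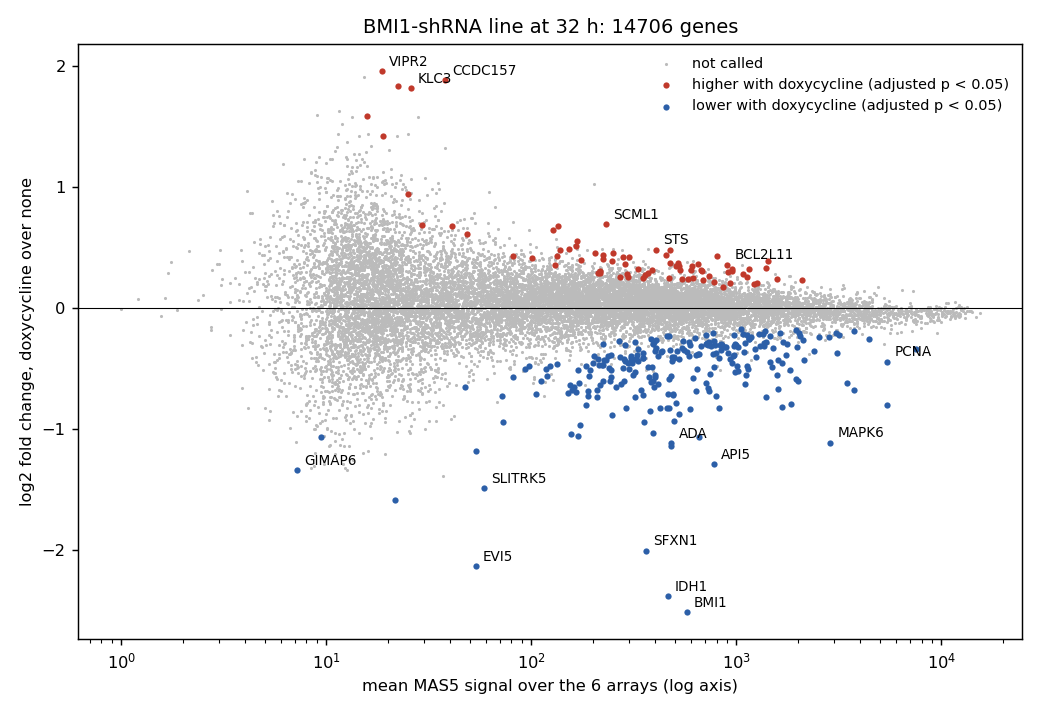
Log2 fold change of doxycycline over none in the BMI1-shRNA line at 32 h (vertical axis) against the mean MAS5 signal of the 6 arrays (horizontal log axis), 1 point per gene. Red points are the 77 genes that rose and blue points the 247 that fell at adjusted p under 0.05. BMI1, IDH1 and SFXN1 lie lowest among bright genes, and the 6 rises of at least 2-fold all lie at the dim end.

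Of the bright genes, IDH1 fell most after BMI1. IDH1, the cytosolic isocitrate dehydrogenase that supplies NADPH, read 150, 142 and 144 with doxycycline, against 838, 763 and 743 without. Its log2 fold change of -2.38 ± 0.11 (adjusted p = 6.17e-19, limma) was close in size to that of BMI1. A second probe set of IDH1 gave -2.46 ± 0.06, and a dim one -0.44 ± 0.27. The undosed BMI1-shRNA cells already stood below the control-shRNA line, in which IDH1 averaged 1309 ± 144 with doxycycline and 1262 ± 21.3 without.

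SFXN1, a mitochondrial serine transporter that feeds one-carbon metabolism, read 145, 142 and 136 with doxycycline, against 591, 596 and 568 without. The 3 doxycycline arrays were nearly identical, and the log2 fold change was -2.01 ± 0.08 (adjusted p = 3.05e-21). Of its other retained probe sets, the brighter gave -1.92 ± 0.08 and the dim one 0.00 ± 0.27. API5, an inhibitor of apoptosis, read 435, 403 and 504 with doxycycline, against 1109, 1016 and 1182 without, a log2 fold change of -1.30 ± 0.07 (adjusted p = 2.33e-16). Other API5 probe sets moved less, with -0.75 ± 0.11, -0.70 ± 0.11, -0.09 ± 0.20 and -0.36 ± 0.19.

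The promoters of BMI1 and of the bright genes at either end of the comparison, IDH1 and SFXN1 among the falls and SCML1 as the largest bright rise, are printed so that the sequences behind these transcripts can be seen side by side. Each runs from 250 bases before to 50 bases after the RefSeq start of the gene on GRCh38.p14, 5′ to 3′ on the strand of the gene. Capitals mark the GC box GGGCGG, the CCAAT box CCAAT, the E-box CACGTG, the TATA box TATAAA and the cAMP response element TGACGTCA on either strand. Neighbouring GC boxes can overlap each other.
BMI1, chr10:22320849-22321148, + strand: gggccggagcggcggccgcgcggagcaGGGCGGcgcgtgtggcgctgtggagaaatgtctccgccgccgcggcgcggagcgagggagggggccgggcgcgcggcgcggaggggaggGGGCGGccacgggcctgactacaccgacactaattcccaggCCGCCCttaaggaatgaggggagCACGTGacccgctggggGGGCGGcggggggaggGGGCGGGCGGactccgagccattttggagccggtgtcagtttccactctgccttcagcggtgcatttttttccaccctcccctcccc
IDH1, chr2:208254409-208254708, - strand: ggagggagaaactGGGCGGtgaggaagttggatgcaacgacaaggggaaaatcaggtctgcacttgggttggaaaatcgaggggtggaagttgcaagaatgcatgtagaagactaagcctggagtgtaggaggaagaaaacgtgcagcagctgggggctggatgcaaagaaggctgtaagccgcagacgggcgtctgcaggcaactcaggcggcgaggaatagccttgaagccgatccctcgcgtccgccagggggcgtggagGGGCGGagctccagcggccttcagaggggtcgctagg
SFXN1, chr5:175478310-175478609, + strand: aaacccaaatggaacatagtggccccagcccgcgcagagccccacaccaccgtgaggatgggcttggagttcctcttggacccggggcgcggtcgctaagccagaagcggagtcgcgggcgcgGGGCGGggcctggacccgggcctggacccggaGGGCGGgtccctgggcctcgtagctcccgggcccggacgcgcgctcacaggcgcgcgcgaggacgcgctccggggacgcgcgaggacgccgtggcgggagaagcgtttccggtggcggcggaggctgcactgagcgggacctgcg
SCML1, chrX:17737243-17737542, + strand: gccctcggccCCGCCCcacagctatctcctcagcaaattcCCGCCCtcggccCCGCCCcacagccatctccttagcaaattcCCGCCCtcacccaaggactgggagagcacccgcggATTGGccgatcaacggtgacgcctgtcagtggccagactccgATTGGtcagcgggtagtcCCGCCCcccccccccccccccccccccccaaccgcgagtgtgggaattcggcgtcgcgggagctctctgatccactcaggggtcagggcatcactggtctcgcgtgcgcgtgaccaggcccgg
The BMI1 promoter held 6 GC boxes and 1 E-box. IDH1 and SFXN1 held 2 GC boxes each and none of the other motifs, and SCML1 held 5 GC boxes and 2 CCAAT boxes. Among genes with a promoter in the table, GC boxes stood in 75.2% of the 206 falls and 69.1% of the 68 rises, against 65.4% of all genes tested and 45% of all promoters in the table. E-boxes stood in 14.6% of falls and 13.2% of rises, against 9.73% of genes tested and 7.26% of all promoters. CCAAT boxes stood in 36.9% of falls and 36.8% of rises, against 36.6% of genes tested and 34.6% of all promoters. TATA boxes stood in 5.83% of falls and 8.82% of rises, against 6.69% and 11.5%, and the cAMP response element in 4.37% of falls and 2.94% of rises, against 3% and 1.85%. A match is a run of letters and not a known binding site. Called genes were brighter than most, and the shares were not set against genes of equal brightness, so any part of brightness in them was not tested.

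Next came TWF1, an actin monomer-binding protein, which read 231, 311 and 360 with doxycycline, against 654, 640 and 692 without. The 3 doxycycline arrays were spread more widely than for the genes above but did not reach the others, and the log2 fold change was -1.15 ± 0.10 (adjusted p = 2.53e-10, limma). Other TWF1 probe sets gave -0.80 ± 0.08 and, for a dim one, -0.40 ± 0.32. ADA, the adenosine deaminase of purine salvage, read 287, 290 and 330 with doxycycline, against 646, 665 and 675 without. Its log2 fold change was -1.12 ± 0.08 (adjusted p = 1.64e-13), and its other retained probe set gave -1.01 ± 0.14. MAPK6, the atypical MAP kinase ERK3, was among the brightest of the called genes, with 1941, 1639 and 1841 with doxycycline, against 3961, 3861 and 3915 without. Its log2 fold change was -1.12 ± 0.06 (adjusted p = 2.04e-17).

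MRPL10, a protein of the large mitochondrial ribosomal subunit, read 416, 373 and 479 with doxycycline, against 827, 850 and 1001 without, a log2 fold change of -1.07 ± 0.08 (adjusted p = 8.29e-13, limma). SLC7A11, the cystine importer that supplies glutathione synthesis, read 88.6, 114 and 123 with doxycycline, against 231, 237 and 222 without, a change of -1.06 ± 0.14 (adjusted p = 1.44e-06). Both groups of each gene lay apart. Other SLC7A11 probe sets gave -1.09 ± 0.18 and, for a dim one, -0.06 ± 0.19. RPS6KA2, a ribosomal S6 kinase downstream of ERK, read 87.3, 114 and 97.1 with doxycycline, against 202, 188 and 243 without, a change of -1.05 ± 0.11 (adjusted p = 4.93e-09). Its next probe set gave -0.43 ± 0.11.

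SLC39A10, a zinc importer of the plasma membrane, read 224, 261 and 287 with doxycycline, against 510, 522 and 559 without, a change of -1.03 ± 0.07 (adjusted p = 6.22e-13, limma). TP53INP1, a p53-inducible stress protein, read 112, 118 and 116 with doxycycline, against 237, 245 and 211 without, a change of -0.97 ± 0.15 (adjusted p = 2.48e-05). Its other probe set, close to background, gave -0.47 ± 0.50, and the mean of both lost the call (-0.72; adjusted p = 0.264). With these, the 12 bright genes of the largest falls are complete, where bright means a mean signal of at least 100 over the 6 arrays. In all 12 the doxycycline arrays of the BMI1-shRNA line lay below the arrays without it and below all 6 arrays of the control-shRNA line. The genes were chosen for their falls on the BMI1-shRNA arrays, so the separation within that line is no separate support.

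**Figure D2:**
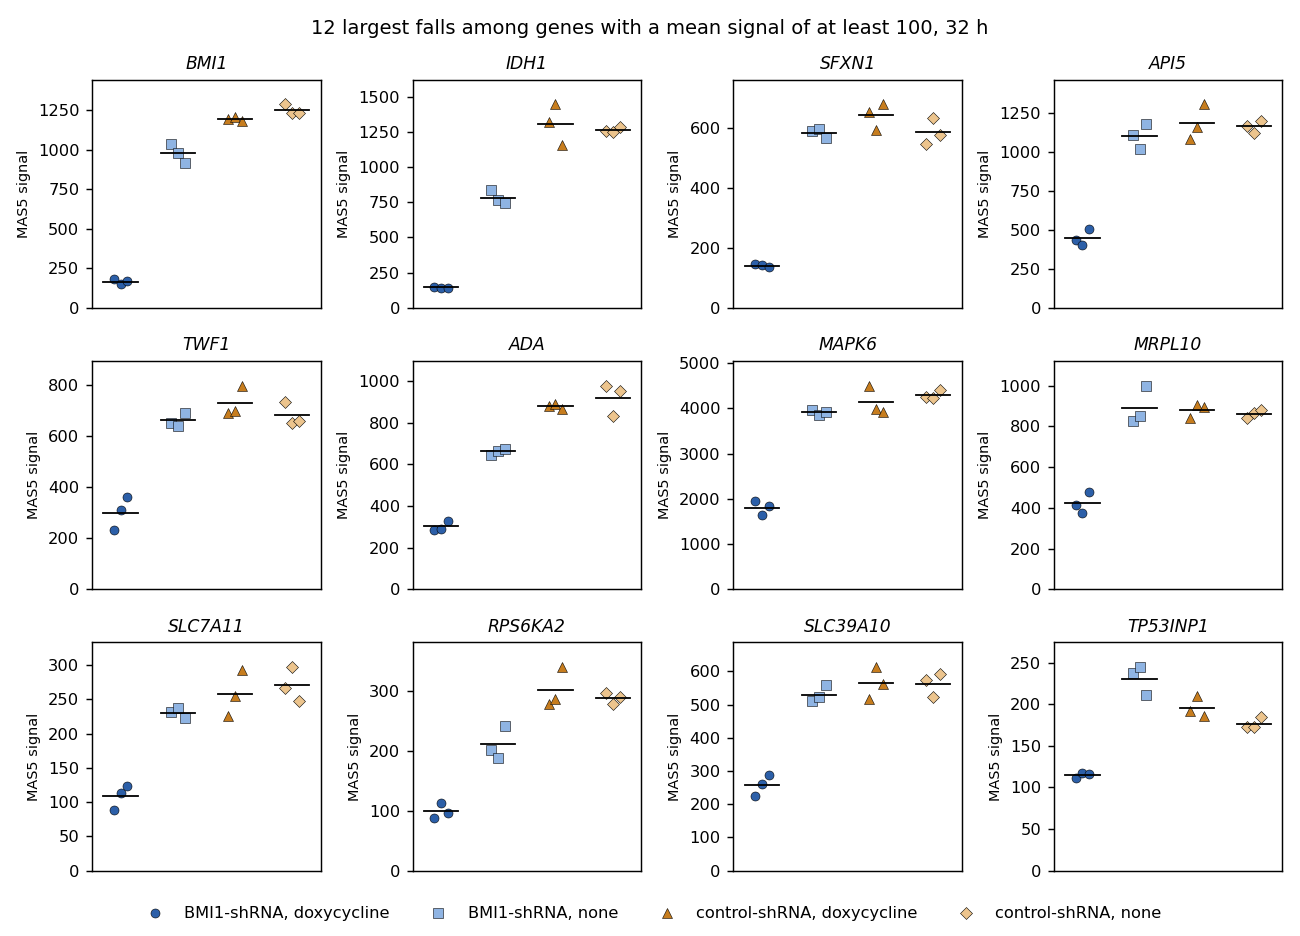
MAS5 signal of the 12 bright genes with the largest falls, 1 panel per gene with its own axis from 0. Points are single arrays at 32 h, black lines are group means, and groups run from BMI1-shRNA with doxycycline through BMI1-shRNA without to control-shRNA with and without. In each panel the 3 doxycycline arrays of the BMI1-shRNA line are the lowest of the 12. The genes were chosen for their falls on the BMI1-shRNA arrays.

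Among dimmer genes, EVI5, a Rab GTPase-activating protein linked to cell division, read 18.9, 16.6 and 14 with doxycycline, against 90.2, 84.8 and 97.1 without. Its log2 fold change was -2.14 ± 0.20 (adjusted p = 7.39e-10, limma), while a dimmer probe set gave 0.18 ± 0.38 and the mean of both -0.98 (adjusted p = 0.00394). ARHGAP12, a GTPase-activating protein, read 33.8, 33.5 and 25.8 with doxycycline, against 81.8, 78.9 and 70.2 without, a change of -1.18 ± 0.16 (adjusted p = 1.87e-06). PTPN21, a tyrosine phosphatase, read 9.60, 1.60 and 15.7 with doxycycline, against 27.2, 36.6 and 38.5 without, a change of -1.59 ± 0.33 (adjusted p = 0.00261). GIMAP6, a GTPase of lymphocytes, read 1.00, 0.80 and 3.10 with doxycycline, against 7.10, 14.1 and 17.2 without, a change of -1.34 ± 0.37 (adjusted p = 0.0438). PTPN21 lost its call without doxycycline replicate 2 (adjusted p = 0.0826, change -1.14), and GIMAP6 lost its call in 4 of the 6 fits that left out an array (adjusted p up to 0.251) and with the mean of its probe sets (-0.53; adjusted p = 0.539).

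The rises were smaller, and the largest of them were in dim genes. VIPR2, a receptor for vasoactive intestinal peptide, read 40.8, 43.4 and 14.6 with doxycycline, against 0.90, 9.20 and 3.00 without (log2 fold change 1.96 ± 0.49; adjusted p = 0.0182, limma). KLC3, a kinesin light chain, read 43.2, 53.4 and 33.3 with doxycycline, against 9, 9.70 and 6.30 without (1.81 ± 0.35; adjusted p = 0.000832). CCDC157, a coiled-coil protein, IL11, a cytokine, TSPAN18, a tetraspanin, and LURAP1, an adaptor protein, rose by 1.88 ± 0.50, 1.83 ± 0.52, 1.59 ± 0.42 and 1.42 ± 0.39 on the log2 scale (adjusted p = 0.0347, 0.0491, 0.031 and 0.0438). Among these 6 genes, only KLC3 kept its call whichever of the 6 arrays was left out, and the others lost it in 4 to 6 of those fits, with adjusted p up to 0.131 for VIPR2, 0.192 for CCDC157, 0.182 for IL11, 0.126 for TSPAN18 and 0.254 for LURAP1. Other probe sets of these genes moved less or the other way, with 0.41 ± 0.60 for KLC3, at the same brightness, -0.69 ± 0.50 for VIPR2, -0.49 ± 0.32 for CCDC157 and 0.64 ± 0.53 for TSPAN18. With the mean of probe sets all 4 lost their call, at 1.11 for KLC3, 0.63 for VIPR2, 0.70 for CCDC157 and 1.11 for TSPAN18 (adjusted p = 0.154, 0.618, 0.405 and 0.114). TFR2, a transferrin receptor, overlapped between groups, at 33.9, 42.8 and 23.6 with doxycycline, against 32.4, 7.60 and 10.4 without (0.94 ± 0.26; adjusted p = 0.0422, and up to 0.312 with an array left out). NIPAL2, a putative magnesium transporter, read 33.8, 40.9 and 37.6 with doxycycline, against 24.6, 18.7 and 20.6 without (0.68 ± 0.15; adjusted p = 0.0053), and lost its call with only the arrays compared (adjusted p = 0.348) and with the mean of its probe sets (0.47; adjusted p = 0.363).

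The bright gene with the largest rise was SCML1, a Polycomb group protein related to Drosophila Sex comb on midleg. It read 285, 256 and 325 with doxycycline, against 171, 177 and 180 without, a log2 fold change of 0.69 ± 0.10 (adjusted p = 6.43e-06, limma). STS, the steroid sulfatase, read 480, 454 and 485 with doxycycline, against 373, 327 and 313 without, a change of 0.48 ± 0.06 (adjusted p = 1.01e-06). Its next probe sets gave 0.66 ± 0.14 and 0.48 ± 0.11. ZFYVE21, an endosomal FYVE-domain protein, read 165, 217 and 216 with doxycycline, against 128, 136 and 138 without (0.55 ± 0.10; adjusted p = 0.000514). In these 3 genes the groups did not overlap and the calls stood with any array left out. The second, dimmer probe set of SCML1 gave 0.43 ± 0.17 and that of ZFYVE21 0.16 ± 0.13, and ZFYVE21 lost its call with only the arrays compared (adjusted p = 0.0687).

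The other bright rises were less firm. ZBTB40, a zinc finger protein, rose by 0.67 ± 0.16, and LRP12, a receptor of the LDL receptor family, by 0.64 ± 0.16 on the log2 scale (adjusted p = 0.0133 and 0.0162, limma). IL27RA, the interleukin-27 receptor, CMTM4, a MARVEL-domain membrane protein, and PCCA, a subunit of mitochondrial propionyl-CoA carboxylase, rose by 0.51 ± 0.11, 0.48 ± 0.11 and 0.48 ± 0.12 (adjusted p = 0.00432, 0.0109 and 0.02). P3H4, a member of the prolyl 3-hydroxylase family, and PRR14L, a proline-rich protein, rose by 0.45 ± 0.10 and 0.47 ± 0.13 (adjusted p = 0.00661 and 0.0442). Each lost its call in at least 1 of the 6 fits that left out an array: in 4 for ZBTB40 and PRR14L, in 2 for LRP12, CMTM4, PCCA and P3H4, and in 1, that without replicate 2 of the cells without doxycycline, for IL27RA (0.38; adjusted p = 0.0886). The highest adjusted p in those fits was 0.135 for ZBTB40, 0.449 for PRR14L, 0.178 for LRP12, 0.243 for CMTM4, 0.165 for PCCA and 0.123 for P3H4. Other probe sets gave 0.06 ± 0.19 and -0.35 ± 0.37 for ZBTB40, and 0.03 ± 0.17 and -0.10 ± 0.50 for IL27RA. The mean of probe sets lowered ZBTB40 to 0.13 and IL27RA to 0.15 (adjusted p = 0.892 and 0.883). LRP12, CMTM4 and PRR14L also lost their calls on that mean, at 0.45, 0.37 and 0.46 (limma, adjusted p = 0.0923, 0.0725 and 0.4). With only the arrays compared, every gene of this paragraph lost its call (limma, adjusted p from 0.066 to 0.244).

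**Figure D3:**
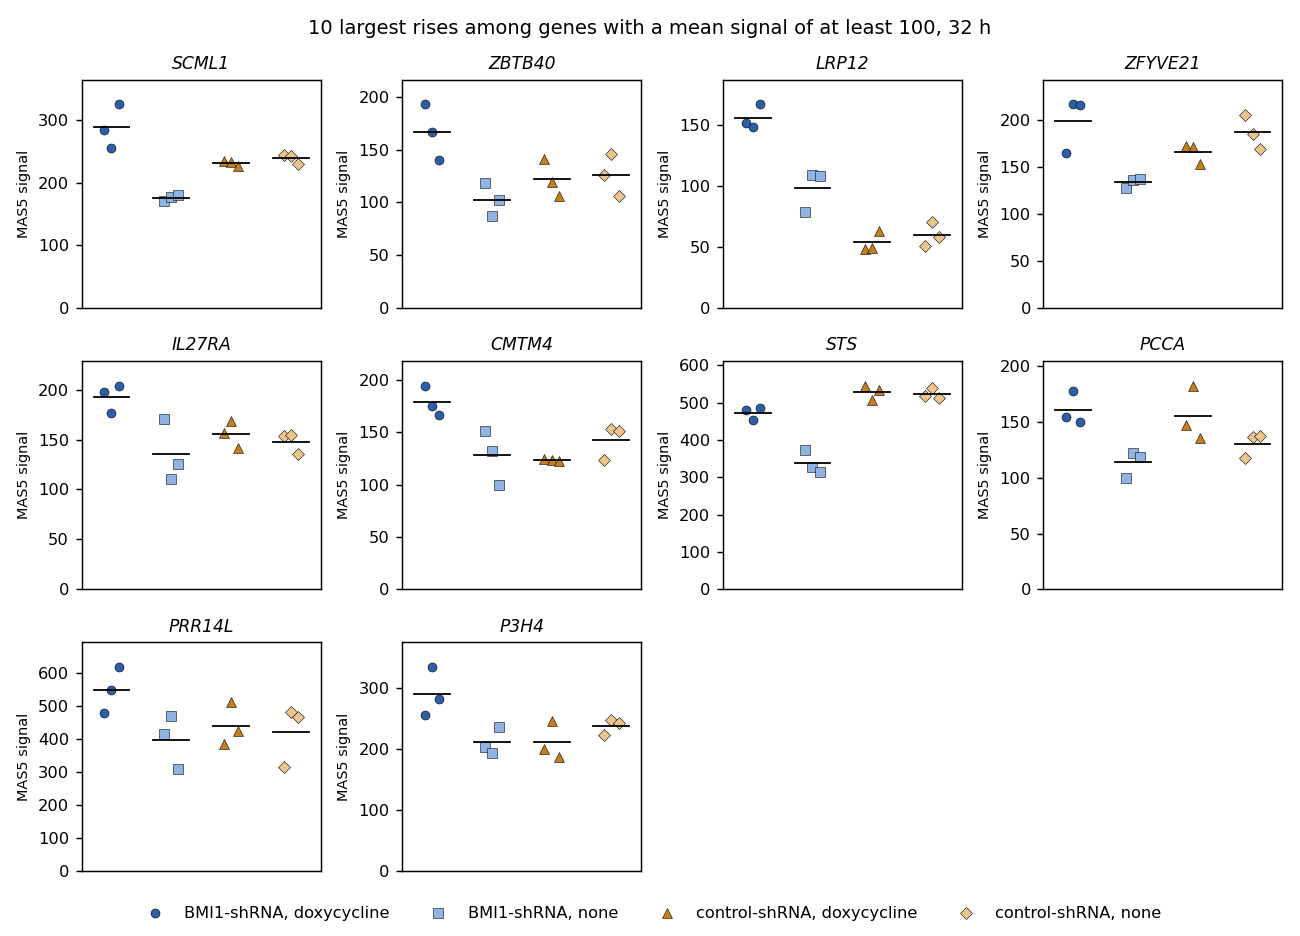
MAS5 signal of the 10 bright genes with the largest rises, 1 panel per gene with its own axis from 0. Points are single arrays at 32 h, black lines are group means, and groups run as labelled, doxycycline left of none within each line. SCML1 and STS separate clearly from the cells without doxycycline, while the STS arrays with doxycycline stay below those of the control-shRNA line, whose means are 529 with and 523 without.

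Lists of genes by role are described next by their counts, which can be read against the 1.68% of all genes that fell and the 0.524% that rose. The lists were drawn up with earlier results of these data known, so a share above that of all genes is no separate support. Called genes were also brighter than most, with 235 of the 247 falls among the 7996 genes at a mean signal of at least 100. Among PRC1 genes, 2 of 22 measured rose and 1, BMI1, fell. SCML1 rose as given above, and AUTS2, a component of a non-canonical PRC1, read 795, 775 and 686 with doxycycline, against 606, 596 and 622 without (log2 fold change 0.30 ± 0.07; adjusted p = 0.0135, limma). The AUTS2 call was lost in 4 of 6 fits that left out an array (adjusted p up to 0.118), and the mean of its probe sets gave -0.42 (adjusted p = 0.538). RING1, the ubiquitin ligase partner of BMI1, averaged 662 ± 10.2 with doxycycline and 606 ± 43.1 without (SD, n = 3 each), a change of 0.13 ± 0.06 (adjusted p = 0.375). PCGF2, the closest paralog of BMI1, changed by -0.03 ± 0.12 (adjusted p = 0.972). The median over the 22 genes was 0.10, against 0.02 over all genes.

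Among PRC2 genes, 1 of 13 measured rose: JARID2, an accessory subunit that helps recruit the complex, read 565, 653 and 548 with doxycycline, against 435, 468 and 459 without (log2 fold change 0.37 ± 0.07; adjusted p = 0.00138, limma). Another JARID2 probe set, at a signal of 438, gave 0.08 ± 0.17, and the mean of its probe sets lost the call (0.14; adjusted p = 0.708). EZH2, the methyltransferase, read 1000, 1042 and 1068 with doxycycline, against 1024, 996 and 1078 without (0.01 ± 0.05; adjusted p = 0.989). The groups overlapped.

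Calls among genes known as Polycomb targets can be read against the 2.20% of all genes called. At that share, lists this short may hold no call. Of 39 HOX genes listed 17 were measured, and of 46 developmental regulators 23. None of 17 HOX genes was called (median log2 fold change 0.16), and HOXB7, with the largest change among those with a signal of at least 100, read 254, 256 and 265 with doxycycline, against 239, 213 and 232 without (0.18 ± 0.16; adjusted p = 0.788, limma). Of 23 developmental regulators repressed by Polycomb, only SOX2, a stem cell transcription factor, was called. It read 54.0, 60.7 and 40.9 with doxycycline, against 25.5, 32.5 and 33.0 without, a change of 0.67 ± 0.17 (adjusted p = 0.0267), and lost its call in 3 of 6 fits that left out an array (adjusted p up to 0.18). Its other probe sets, all dimmer, gave 0.43 ± 0.26, -0.83 ± 0.45 and 0.84 ± 0.47, and the mean of all 4 was 0.28 (adjusted p = 0.681). The call was also lost with only the arrays compared (adjusted p = 0.301) and with the larger pseudocount (0.52; adjusted p = 0.0522). In the control-shRNA line SOX2 read 154.6, 145 and 129.9 with doxycycline, against 123.1, 142.3 and 132.6 without. All of these lay above every SOX2 reading of the BMI1-shRNA line. HOXB7 was lower in the control-shRNA line, at 37.2, 23.1 and 31.2 with doxycycline, against 22.9, 18.5 and 32.3 without. What set the lines apart in these genes was not tested.

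None of 7 CDK inhibitors was called, a list too short to set against the 2.20% of all genes called. Their median log2 fold change was -0.06. CDKN2A, which encodes p16 and p14ARF and is the best-known target of BMI1, read 3049, 2931 and 2909 with doxycycline, against 3105, 2676 and 3086 without. The groups overlapped, the change was 0.01 ± 0.07 (adjusted p = 0.991, limma), and its other probe set gave -0.04 ± 0.06. CDKN2B, its neighbour encoding p15, was dim and changed by -0.24 ± 0.22 (adjusted p = 0.787). CDKN1A, which encodes p21, changed by -0.39 ± 0.17 (adjusted p = 0.353).

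Of 43 G1/S and replication genes 2 fell (4.65%) and of 45 mitotic genes 3 fell (6.67%), against 1.68% of all genes. None of these cell cycle genes rose, and at the 0.524% of all genes that rose, lists of these sizes may hold no rise. PCNA, the sliding clamp of DNA replication, read 4357, 4679 and 4700 with doxycycline, against 6745, 5458 and 6606 without, a log2 fold change of -0.45 ± 0.07 (adjusted p = 8.82e-05, limma). DTL, a substrate receptor of a ubiquitin ligase that acts on replication, fell by 0.49 on the log2 scale (SE 0.06; adjusted p = 1.44e-06), although a second DTL probe set of similar brightness, 1613 signal units, gave -0.06 ± 0.05. AURKA, a mitotic kinase, and the kinesins KIF4A and KIF2C changed by -0.32 ± 0.06, -0.31 ± 0.07 and -0.29 ± 0.05 (adjusted p = 0.00107, 0.0047 and 0.000329). KIF4A lost its call without doxycycline replicate 2 (-0.28; adjusted p = 0.051). The list medians were -0.04 and -0.02.

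In the BCL2 family, BCL2L11, which encodes the pro-apoptotic BIM, read 1104, 958 and 975 with doxycycline, against 752, 778 and 837 without. The groups lay apart, and the log2 fold change was 0.36 ± 0.08 (adjusted p = 0.00494, limma). A second bright probe set gave 0.33 ± 0.08 and the next 0.17 ± 0.08. The dimmer probe sets gave 0.29 ± 0.11, 0.16 ± 0.13, 0.38 ± 0.25 and -0.23 ± 0.19. The BCL2L11 call was lost without doxycycline replicate 1 (0.29, adjusted p = 0.0813) and with the mean of probe sets (0.21, adjusted p = 0.299). It was also lost with only the arrays compared (limma, adjusted p = 0.0539). BNIP3L, a mitophagy receptor, read 480, 489 and 529 with doxycycline, against 644, 610 and 687 without (-0.37 ± 0.06; adjusted p = 6.59e-05), while its other probe set gave -0.11 ± 0.10. The other 9 of 11 pro-apoptotic genes were not called. PMAIP1, which encodes NOXA, changed by 0.11 ± 0.08 (adjusted p = 0.722).

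Of 10 anti-apoptotic regulators, API5 alone fell. BCL2 changed by -0.09 ± 0.10 (adjusted p = 0.846, limma) and MCL1, on which myeloma cells often depend, by -0.03 ± 0.06 (adjusted p = 0.909). Among 25 p53 targets 3 fell (12%, against 1.68% of all genes) and none rose. At the 0.524% of all genes that rose, a list of this size may hold no rise. FAS, the death receptor, read 215, 206 and 165 with doxycycline, against 281, 308 and 286 without (-0.57 ± 0.10; adjusted p = 0.000362). Its 3 other probe sets gave -0.58 ± 0.09, -0.73 ± 0.13 and -0.66 ± 0.12. RRM2B, a p53-inducible subunit of ribonucleotide reductase, read 408, 409 and 463 with doxycycline, against 571, 587 and 546 without (-0.41 ± 0.09; adjusted p = 0.00394).

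The metabolic lists held several of the deepest falls, in a few members each. Of 22 serine and one-carbon genes, SFXN1, SLC25A32 and MTHFD2 fell, or 13.6%, against falls in 1.68% of all genes. That list was chosen with earlier results of these data known, so its share is no separate support. SLC25A32, the mitochondrial folate carrier, read 1133, 1122 and 1385 with doxycycline, against 1847, 2288 and 2294 without, a log2 fold change of -0.82 ± 0.12 (adjusted p = 5.25e-06, limma). MTHFD2, a mitochondrial folate dehydrogenase, read 2702, 2704 and 2800 with doxycycline, against 4173, 3797 and 4696 without (-0.62 ± 0.08; adjusted p = 1.41e-06). The median over the 22 genes was -0.02, against 0.02 over all genes.

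Of 36 ATF4 and amino acid genes, SLC7A11, MTHFD2, SLC7A1 and SLC7A5 fell (11.1%, against 1.68% of all genes). SLC7A1, an arginine transporter, changed by -0.31 ± 0.05 and SLC7A5, a leucine transporter, by -0.28 ± 0.07 (adjusted p = 2.42e-05 and 0.0243, limma). SLC7A5 lost its call in 4 of 6 fits that left out an array (adjusted p up to 0.229), and SLC7A1 with the mean of its probe sets (-0.22; adjusted p = 0.324). In purine salvage, ADA and DCK fell among 24 genes (8.33%). DCK, the deoxycytidine kinase, read 249, 240 and 297 with doxycycline, against 385, 399 and 355 without (-0.53 ± 0.09; adjusted p = 0.000182). IDH1 was the sole call among 24 genes of isocitrate dehydrogenases, the TCA cycle and NADPH enzymes, whose median was 0.01.

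Of 24 zinc transporter and metallothionein genes, 4 fell, or 16.7%, against 1.68% of all genes, with a list median of -0.02. This list too was chosen with earlier results of these data known, so its share is no separate support. Besides SLC39A10, SLC30A1, a zinc exporter, read 705, 593 and 631 with doxycycline, against 951, 922 and 843 without (log2 fold change -0.49 ± 0.11; adjusted p = 0.0056, limma). MT2A, a metallothionein, which binds zinc, read 835, 832 and 832 with doxycycline, against 1121, 1115 and 1069 without (-0.40 ± 0.08; adjusted p = 0.00111). MT1X, another metallothionein, changed by -0.38 ± 0.09 (adjusted p = 0.0208). SLC30A1 lost its call without doxycycline replicate 2 (-0.44; adjusted p = 0.0616) and MT1X in 4 of 6 such fits (adjusted p up to 0.182). Of the 4 genes only SLC39A10 passed the test of the difference between the lines (given further on for all genes), and MT2A gave -0.20 ± 0.08 with doxycycline in the control-shRNA line (adjusted p = 0.826). Metallothioneins are near-identical copies of each other, so their probe sets may share targets.

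In the endoplasmic reticulum, 2 of 32 genes fell and 2 rose (6.25% each, against 1.68% and 0.524% of all genes). PDIA4, a protein disulfide isomerase, read 1094, 1033 and 1005 with doxycycline, against 1617, 1951 and 1691 without, a log2 fold change of -0.74 ± 0.08 (adjusted p = 3.51e-08, limma). Its other probe set gave -0.56 ± 0.10. EDEM1 and EDEM2, which act in disposal of misfolded glycoproteins, went opposite ways, at -0.28 ± 0.06 and 0.45 ± 0.11 (adjusted p = 0.00986 and 0.0133). DNAJB9, a cochaperone, changed by 0.20 ± 0.06 (adjusted p = 0.0476), and its other probe sets gave 0.05 ± 0.12 and 0.03 ± 0.15. EDEM1 and EDEM2 lost their calls in 3 of 6 fits that left out an array, and DNAJB9 in 5, with adjusted p up to 0.0903, 0.107 and 0.259.

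Other lists held 1 to 3 called members each, to be read against the 1.68% of all genes that fell and the 0.524% that rose. MAPK6, SPRED1, an inhibitor of RAS signalling, and JUN, an AP-1 subunit, fell among 29 immediate early and MAPK genes, with -0.51 ± 0.13 for SPRED1 and -0.39 ± 0.11 for JUN (adjusted p = 0.0217 and 0.0477, limma). LSS, the lanosterol synthase of cholesterol synthesis, read 1537, 1527 and 1423 with doxycycline, against 2218, 2042 and 2178 without (-0.52 ± 0.07; adjusted p = 6.09e-06), the sole call of 25 lipid synthesis genes. UVRAG, an autophagy regulator, changed by -0.51 ± 0.07, ICAM1, an adhesion molecule induced by NF-kB, by -0.32 ± 0.06 and DDX5, an RNA helicase of microRNA processing, by -0.38 ± 0.10 (adjusted p = 4.52e-06, 0.00128 and 0.0422). DDX5 was also lower with doxycycline in the control-shRNA line, at -0.30 ± 0.10 (adjusted p = 0.738), and the difference between the lines was -0.08 ± 0.15 (adjusted p = 0.926). SPRED1, JUN and DDX5 lost their calls in 3, 5 and 4 of 6 fits that left out an array, with adjusted p up to 0.165, 0.209 and 0.204.

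MRPL10 was the sole fall among 45 mitochondrial ribosome genes and BNIP3L among 34 glycolysis and hypoxia genes. Of 30 plasma cell and B cell genes, CD38, a surface ectoenzyme used to identify plasma cells, rose, with 558, 638 and 514 with doxycycline, against 424, 476 and 440 without (log2 fold change 0.35 ± 0.09; adjusted p = 0.023, limma). It lost that call in 4 of 6 fits that left out an array (adjusted p up to 0.225). Of 31 interferon-stimulated genes SAMD9L, an antiviral protein, rose by 0.40 ± 0.07 (adjusted p = 0.000513). In the control-shRNA line SAMD9L gave 0.25 ± 0.07 (adjusted p = 0.601), and the lines differed by 0.15 ± 0.10 (adjusted p = 0.721). Its other probe sets gave 0.08 ± 0.18 and 0.17 ± 0.19, and its call was lost with the mean of probe sets (0.21; adjusted p = 0.311) and with only the arrays compared (adjusted p = 0.0857). IRF4, the transcription factor on which myeloma cells depend, changed by 0.14 ± 0.06 (adjusted p = 0.303).

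No member was called among 25 MYC targets of ribosome biogenesis, 27 cytosolic ribosomal proteins, 39 oxidative phosphorylation genes, 18 replication-dependent histones or 33 proteasome subunits. At the 2.20% called over all genes, lists of these sizes may hold none. Their medians lay between -0.04 for oxidative phosphorylation and 0.01 for the histones, against 0.02 over all genes. MYC read 7771, 8168 and 6993 with doxycycline, against 8542, 6997 and 7882 without, a log2 fold change of -0.03 ± 0.09 (adjusted p = 0.96, limma). CCND2, the D cyclin of this line, read 8140, 7939 and 6677 with doxycycline, against 7124, 6489 and 7061 without (0.13 ± 0.08; adjusted p = 0.568). Groups of both genes overlapped, and CCND2 passed the threshold after quantile normalization of the arrays (0.18; adjusted p = 0.045), as did ATP5PB, a subunit of ATP synthase (-0.25; adjusted p = 0.0055, against 0.0814).

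**Figure D4:**
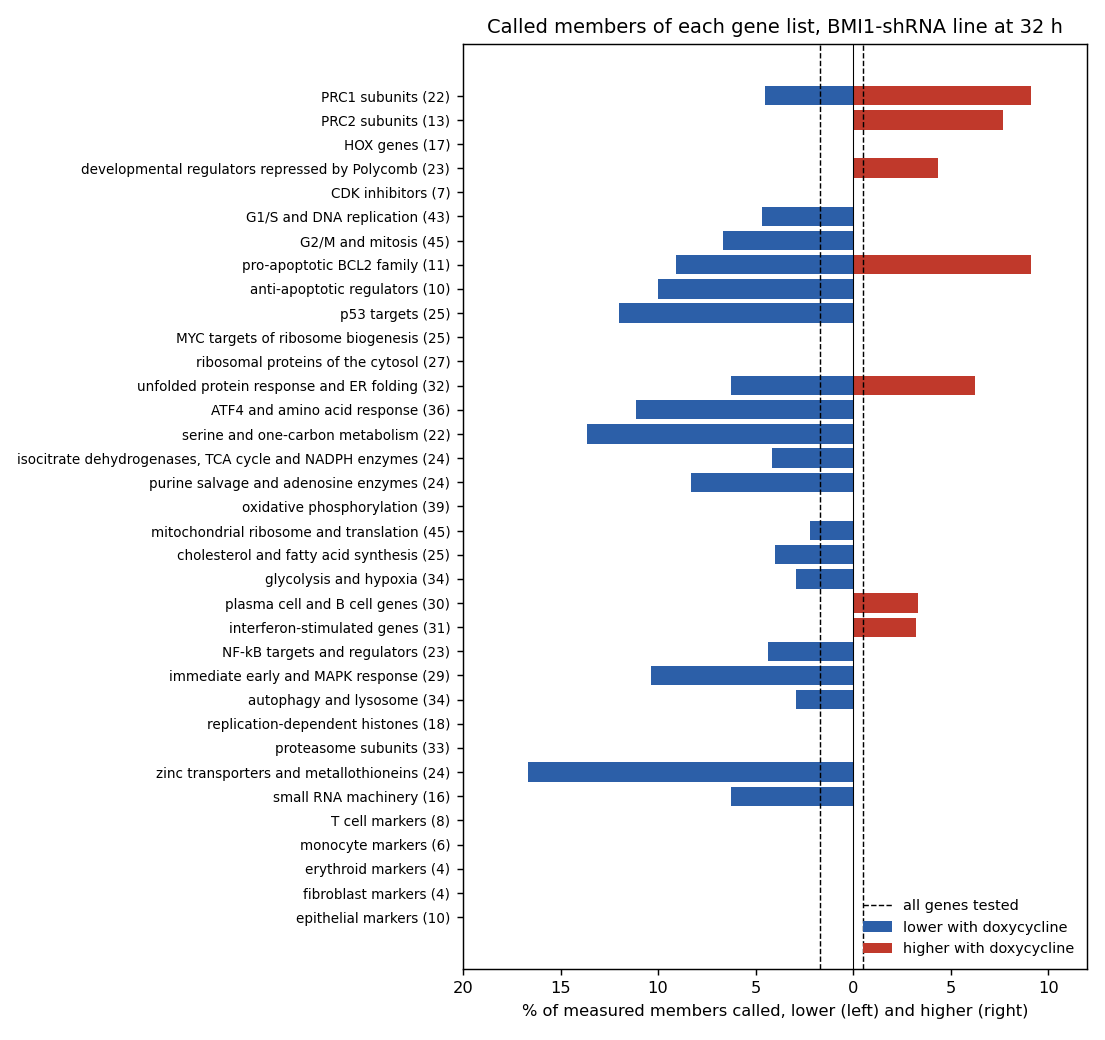
Share of the measured members of each gene list that fell (blue, to the left) or rose (red, to the right) at adjusted p under 0.05 in the BMI1-shRNA line at 32 h, with the number measured in brackets. Dashed lines give the share over all genes tested, 1.68% to the left and 0.524% to the right. Most bars rest on 1 to 4 genes, and the longest, for zinc transporters and metallothioneins, on 4. Lists were chosen with earlier results of these data known.

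Doxycycline in the control-shRNA line was the check on the drug. At an unadjusted p under 0.05 there were 1638 genes (11.1%) in the BMI1-shRNA line and 830 (5.64%) in the control-shRNA line, and at a limma adjusted p under 0.05 there were 324 in the BMI1-shRNA line and 5, or 0.0340%, in the control-shRNA line. Of those 5 genes, 4 fell (0.0272%) and 1 rose (0.00680%), and the 4 that fell also fell in the BMI1-shRNA line. SLITRK5, a neuronal transmembrane protein, read 29.2, 18.5 and 38.6 with doxycycline in the BMI1-shRNA line, against 96.7, 80.2 and 87.6 without (log2 fold change -1.49 ± 0.16; adjusted p = 2.89e-08). In the control-shRNA line it averaged 61.1 ± 7.15 with doxycycline and 150 ± 5.11 without (SD, n = 3 each), a change of -1.23 ± 0.16 (adjusted p = 4.71e-05), which the mean of its probe sets lowered to -0.77 (adjusted p = 0.366). SLITRK5 is among the 12 largest falls of the BMI1-shRNA line, and its effects in the lines differed by -0.27 ± 0.23 (adjusted p = 0.79).

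SLC18B1, a polyamine transporter, fell in both lines, with a log2 fold change of -0.49 ± 0.08 in the BMI1-shRNA line and -0.81 ± 0.08 in the control-shRNA line (adjusted p = 4.83e-05 and 2.46e-08, limma). CWC27, a spliceosome protein, had -0.30 ± 0.07 in the BMI1-shRNA line and -0.41 ± 0.07 in the control-shRNA line (adjusted p = 0.00901 and 0.00469). CHPT1, an enzyme of phosphatidylcholine synthesis, had -0.21 ± 0.06 in the BMI1-shRNA line and -0.29 ± 0.06 in the control-shRNA line (adjusted p = 0.0336 and 0.027). LPGAT1, a lipid acyltransferase, gave 0.13 ± 0.06 in the BMI1-shRNA line (adjusted p = 0.425) and rose by 0.33 ± 0.06 in the control-shRNA line (adjusted p = 0.0209). CWC27 lost its control-line call in 3 of 6 fits that left out an array, and CHPT1 and LPGAT1 in 5 each, with adjusted p up to 0.0879, 0.382 and 0.379. Genes that fell in the BMI1-shRNA line had a median of -0.01 in the control-shRNA line and those that rose -0.04.

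Tested directly, the doxycycline effect differed between the lines for 139 genes, or 0.945% of genes tested (9.51% at an unadjusted p under 0.05). Of these, 111 (0.755%) were lower and 28 (0.190%) higher in the BMI1-shRNA line. IDH1, SFXN1 and EVI5 had differences of -2.43 ± 0.15, -2.14 ± 0.11 and -2.19 ± 0.28 on the log2 scale (limma, adjusted p = 3.19e-14, 4.88e-17 and 3.18e-06). EVI5 lost this call with the mean of its probe sets (-0.98; adjusted p = 0.154), and SFXN1 kept it at -1.14. All 12 bright genes of the largest falls passed this test. It reuses the BMI1-shRNA arrays on which these falls and the bright rises were chosen, so passing it is no separate support. Among the 10 bright rises, SCML1 (0.74 ± 0.14), ZFYVE21 (0.71 ± 0.14), CMTM4 (0.68 ± 0.16), STS (0.47 ± 0.09) and P3H4 (0.62 ± 0.14) passed it, SCML1 and ZFYVE21 no longer with the mean of their probe sets (0.50 and 0.43; adjusted p = 0.145 and 0.0856). BCL2L11 did not, with a difference of 0.20 ± 0.11 (adjusted p = 0.606), and gave 0.16 ± 0.08 in the control-shRNA line. CD38 and AUTS2 did not pass it either, at 0.41 ± 0.12 and 0.29 ± 0.10 (adjusted p = 0.132 and 0.273).

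Some of the largest differences came from dim genes that moved in the control-shRNA line. ADAD2-AS1, an antisense transcript, had a difference of 3.00 ± 0.74 (adjusted p = 0.0304, limma), built from 0.95 ± 0.52 in the BMI1-shRNA line and -2.05 ± 0.52 in the control-shRNA line, neither of them called. CGREF1, an EF-hand protein, had -2.36 ± 0.55 (adjusted p = 0.0202), and H3-4, a histone, -2.31 ± 0.59 (adjusted p = 0.0415). Signals behind these values were low: CGREF1 read 8.30, 10.8 and 16.7 with doxycycline, against 25.4, 21.2 and 29.9 without, in the BMI1-shRNA line. The 3 genes lost their calls in 9, 4 and 8 of 12 fits that left out an array, with adjusted p up to 0.116, 0.0826 and 0.147. CCDC157 and TSPAN18 had differences of 2.88 ± 0.71 and 2.79 ± 0.59 (adjusted p = 0.0321 and 0.00684), which the mean of probe sets lowered to 1.30 and 1.06 (adjusted p = 0.268 and 0.544).

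The 32 h effects were set beside those of the same line at 24 h and 48 h, in other arrays. Of the 247 genes that fell at 32 h, 236 had a log2 fold change below 0 at 24 h and 246 at 48 h, against 44.5% and 49.7% of all genes. Their median was -0.29 at 24 h, -0.45 at 32 h and -0.54 at 48 h. Of the 77 genes that rose, 66 were above 0 at 24 h and 69 at 48 h, against 55.5% and 50.3% of all genes, with medians of 0.15 at 24 h, 0.35 at 32 h and 0.21 at 48 h. The 32 h medians are those of the arrays that chose the genes.

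BMI1 itself had log2 fold changes of -2.13 ± 0.10 at 24 h, -2.52 ± 0.10 at 32 h and -2.65 ± 0.10 at 48 h. ADA followed with -0.93 ± 0.08, -1.12 ± 0.08 and -1.65 ± 0.08, and STS rose by 0.34 ± 0.06, 0.48 ± 0.06 and 0.89 ± 0.06. TWF1, at -0.66 ± 0.10, -1.15 ± 0.10 and -1.15 ± 0.10, had the same value at both later times. ZBTB40, PCCA and NIPAL2 were above 0 at 32 h and near 0 at the neighbouring times, for example 0.13 ± 0.16, 0.67 ± 0.16 and -0.08 ± 0.16 for ZBTB40. PTPN21 and GIMAP6, among the dim falls, gave -0.21 ± 0.33 and 0.30 ± 0.37 at 48 h.

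**Figure D5:**
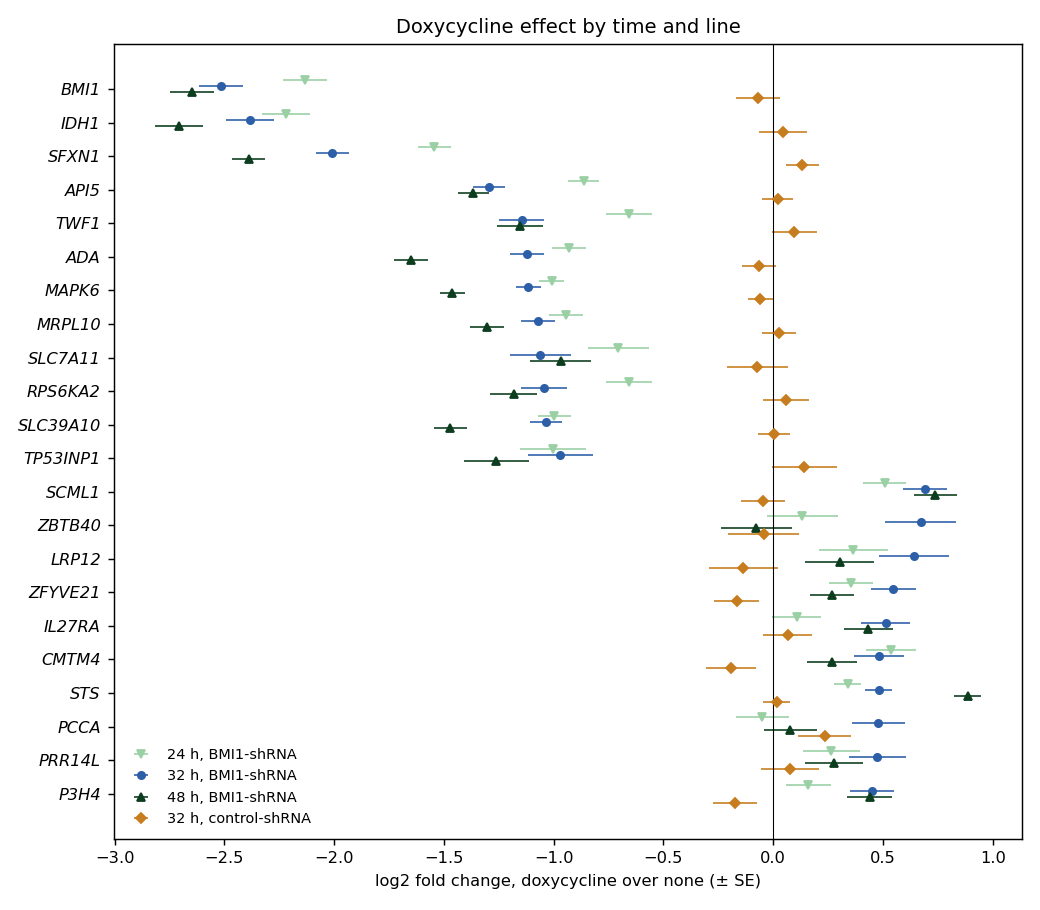
Log2 fold change of doxycycline over none (horizontal axis, with SE bars) for the 12 bright falls and 10 bright rises, at 24, 32 and 48 h in the BMI1-shRNA line and at 32 h in the control-shRNA line. The falls lie left of 0 at all 3 times, and the control-shRNA points lie near 0. Among the rises, ZBTB40 and PCCA lie away from 0 at 32 h and close to it at 24 and 48 h.

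No gene passed the limma test of 32 h against 24 h (0% of those tested; 915 genes, or 6.22%, at an unadjusted p under 0.05). The smallest p belonged to TOR1AIP2, BBS10, SFXN1, API5 and CARNMT1, of which SFXN1 differed by -0.46 ± 0.11, API5 by -0.43 ± 0.10 and CARNMT1, a carnosine methyltransferase, by -0.54 ± 0.13 on the log2 scale. The lowest adjusted p was 0.201, for TOR1AIP2. VMA21, an assembly factor of the vacuolar proton pump, was the single call against 48 h (0.00680%; 999 genes, or 6.79%, at an unadjusted p under 0.05). It read 1335, 1241 and 1254 at 32 h with doxycycline, against 1882, 1857 and 1900 without, and its log2 fold change was -0.51 ± 0.07 at 24 h, -0.56 ± 0.07 at 32 h and -1.08 ± 0.07 at 48 h. The difference of 32 h from 48 h was 0.52 ± 0.09 (adjusted p = 0.0358, limma), and it lost its call in 8 of 12 fits that left out an array (adjusted p up to 0.117) and with the mean of probe sets (0.25; adjusted p = 0.897).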

How the data were processed

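Total RNA was labelled as biotinylated cRNA and hybridized to Affymetrix U133 Plus 2 arrays, per the labels' protocols. The authors deposited a table of intensity values, linear MAS5 signals per probe set, per the submitters' processing notes, which give no version of MAS5. The trimmed mean (2% off each end) was 150.02 to 150.03 on each of the 42 arrays, which shows scaling to 1 target. There is no read depth, and the 3 arrays of each group limit the precision.

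Of 54675 probe sets, 62 array controls were set aside. The 35235 retained probe sets reached the median of the array on 3 or more of the 42 arrays. Symbols came from the GEO platform annotation: 41091 probe sets had 1 symbol, 1801 several and 11721 none. A gene was its brightest retained probe set with 1 symbol, giving 14706 genes, of which 7362 had several. BMI1 was read from its single retained probe set although the annotation adds the COMMD3-BMI1 readthrough.

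Log2(signal + 5.4) values, 5.4 being the 25th percentile of all values, entered a linear model of 14 group means in limma (version 3.58.1, R version 4.3.3), with lmFit, contrasts.fit and then eBayes using an intensity trend. There were 28 residual and 8.62 prior degrees of freedom. Tests were two-sided and Benjamini-Hochberg adjusted over all 14706 genes. Labels conflict for the BMI1-shRNA arrays at 0 h (undosed by title, dosed by characteristics, control line by source name), which entered only through the shared variance.

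The 35 gene lists held 973 symbols, of which 798 were tested. Members, lists and the rule for naming genes were chosen with earlier results of these data known. The rule named BMI1, the called genes with the 12 lowest and 10 highest log2 fold changes, the same among genes with a mean signal of at least 100, the 6 highest and 6 lowest calls of the difference between lines, and all calls of the control line. It also named up to 5 genes in each direction per time difference (the 5 smallest p where none was called), up to 4 called members per list or the 2 largest changes of a list with no call, and a fixed set of apoptosis, cell cycle, myeloma and Polycomb genes. SLC7A1 and other genes named by several parts of the rule are described once. Alternatives were pseudocounts of 1 and 18.8, quantile normalization, no filter on low signal, a stricter filter (75th percentile), averaging the probe sets of each gene, each probe set as a feature, eBayes without the trend, fitting only the arrays compared, no 0 h arrays of the BMI1-shRNA line, the replicate number as a block, and each array left out in turn. Promoters came from RefSeq on GRCh38.p14, matched by symbol.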

Additional observations from a re-analysis of the deposited data

Results flagged for a closer look

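For 139 genes the doxycycline effect at 32 h differed between the BMI1-shRNA and the control-shRNA line in the limma interaction test (adjusted p under 0.05). Differences below are the BMI1-shRNA effect minus the control-shRNA effect on the log2 scale, and each was singled out because it passed that test. The deepest were BMI1 (-2.45), IDH1 (-2.43), CGREF1 (-2.36), H3-4 (-2.31), EVI5 (-2.19) and SFXN1 (-2.14). Next came API5 (-1.32), TWF1 (-1.24), TP53INP1 (-1.11), RPS6KA2 (-1.10), MRPL10 (-1.10), MAPK6 (-1.06), ADA (-1.06) and SLC39A10 (-1.04). SLC7A11 (-0.99), SLC25A32 (-0.97), ARHGAP12 (-0.93), CARNMT1 (-0.84), MTHFD2 (-0.70) and PDIA4 (-0.63) lay between 1 and 0.6 in size. Smaller ones were LSS (-0.60), DTL (-0.57), DCK (-0.53), UVRAG (-0.53), VMA21 (-0.46), PCNA (-0.46), BNIP3L (-0.34) and KIF2C (-0.31).

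Higher in the BMI1-shRNA line were ADAD2-AS1 (3.00), CCDC157 (2.88), TSPAN18 (2.79) and KLC3 (2.05), all dim genes. Brighter genes with a higher effect were SCML1 (0.74), ZFYVE21 (0.71), CMTM4 (0.68), P3H4 (0.62), JARID2 (0.50), STS (0.47) and DNAJB9 (0.32). KLC3 lost this call in 6 and CCDC157 in 8 of 12 fits that left out an array (adjusted p up to 0.0907 and 0.11). Of 12 genes whose difference was recomputed with the mean of probe sets, those no longer passing were EVI5 (-0.98), SCML1 (0.50), ZFYVE21 (0.43), KLC3 (1.32), CCDC157 (1.30) and TSPAN18 (1.06). VMA21 did not pass between times on that mean (0.25).

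Between times, VMA21 differed by 0.52 between 32 h and 48 h in the BMI1-shRNA line, by the test of that difference. The cause of these differences was not tested.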

How the results depend on the processing

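Counts of calls depended on how the variance was estimated and on how probe sets were joined. In the BMI1-shRNA line at 32 h, 324 calls became 147 when only the arrays compared were fitted (89.8% of them falls, against 76.2%) and 208 with the mean of probe sets per gene. They ranged from 216 to 328 with an array left out, the lowest without replicate 3 of the cells without doxycycline, and the replicate block gave 308. The 5 control-line calls became 1 with only the arrays compared or the mean of probe sets and 3 with all probe sets as features or no intensity trend, and ranged from 2 to 7 with an array left out (2 without doxycycline replicate 2, and 2 without replicate 3 of the undosed cells); the block gave 6. The 139 differences between lines became 80 with only the arrays compared, 138 with the block, and 104 to 149 with an array left out. Against 24 h there were 0 to 1 calls with an array left out, 1 without 32 h doxycycline replicate 3 or without 24 h undosed replicate 1. Against 48 h the single call became 15 with quantile normalization, 10 with the 75th percentile filter, 3 with the mean of probe sets, 2 without the 0 h arrays and 0 with no intensity trend, only the arrays compared or the replicate block, and 0 to 6 with an array left out. The fit with only the arrays compared has fewer arrays behind the variance, and the cause of its lower counts was not tested.

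Of 41 named falls in the BMI1-shRNA line, 27 kept their call under every setting and every array left out, and of 26 named rises SCML1 and STS did (2). With only the arrays compared, 11 falls and 20 rises lost their call, and with the mean of probe sets 6 and 19. AUTS2 alone turned, to -0.42 with the mean of probe sets (adjusted p = 0.538). Arrays with equal replicate numbers were weakly alike: deviations from group means correlated at r = 0.0593, 0.0366 and 0.0635 across genes for the numbers 1, 2 and 3 in the BMI1-shRNA line. In the control-shRNA line r was 0.0128, -0.0548 and -0.063. Over arrays of different groups in the whole study, r averaged 0.0019 for equal numbers and -0.000948 for other numbers. Whether arrays shared a culture or batch was not tested.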
